A study of Homo sapiens with 6 samples.

Results

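The RNA levels of 10 genes of the NF-kappaB pathway were compared between PANC1 and PANC1OR cells. The genes encode the 5 subunits of the transcription factor (NFKB1, NFKB2, REL, RELA and RELB), the inhibitors NFKBIA, NFKBIB and NFKBIE, the ubiquitin-editing enzyme TNFAIP3, also known as A20, and the cell-surface adhesion molecule ICAM1. They were taken by symbol from a table of 58735 gene rows, and all 10 were among the 18751 genes that held enough reads to be tested. PANC1 is an established human cell line derived from a carcinoma of the pancreatic duct, and was grown untreated in 3 cultures. PANC1OR is a subline obtained from it by serial passage in increasing doses of oxaliplatin, which is a DNA-damaging platinum compound, and was also sampled as 3 cultures. Its resistant growth is described as stable without the drug, and the sources used here do not say whether oxaliplatin was present when RNA was taken. Since a single resistant subline was sampled, the p-values cover the spread among cultures and not that among separately selected sublines.

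NF-kappaB proteins are held in the cytoplasm of resting cells by IkappaB proteins, which include the products of NFKBIA, NFKBIB and NFKBIE. Signals from cytokine and Toll-like receptors activate the IkappaB kinase complex, the IkappaB proteins are degraded, and dimers of the subunits enter the nucleus and bind short kappaB sites in the DNA. NFKBIA, NFKBIE, TNFAIP3 and ICAM1 are textbook targets of the pathway as well as, for the first 3, its inhibitors, so that activation raises the RNA of its own brakes. The activity of the subunits is set largely by their location and modification, which RNA levels do not measure.

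The stretches upstream of ICAM1, TNFAIP3 and NFKBIA are printed because these genes combine a role as pathway targets with non-overlapping levels between the lines. NFKBIE combines both as well but, like RELB, had no entry among the promoters used here. The RefSeq sequences (GRCh38.p14) end at the base before the first annotated base of the gene in GENCODE release 44 and run 5′ to 3′ on the strand of the gene. Capitals mark matches to either of a pair of kappaB motifs, searched on both strands. The ICAM1 stretch is chr19:10270870-10271092 on the plus strand, that of TNFAIP3 chr6:137867009-137867213 on the plus strand and that of NFKBIA chr14:35404750-35404999 on the minus strand.
ICAM1: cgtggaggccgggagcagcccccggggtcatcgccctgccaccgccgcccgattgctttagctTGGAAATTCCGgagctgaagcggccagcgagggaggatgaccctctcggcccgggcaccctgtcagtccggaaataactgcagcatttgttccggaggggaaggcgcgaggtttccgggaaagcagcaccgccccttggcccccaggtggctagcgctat
TNFAIP3: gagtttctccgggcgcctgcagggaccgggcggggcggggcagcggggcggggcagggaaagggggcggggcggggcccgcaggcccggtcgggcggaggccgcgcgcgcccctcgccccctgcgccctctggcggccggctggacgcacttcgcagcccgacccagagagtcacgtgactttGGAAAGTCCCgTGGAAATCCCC
NFKBIA: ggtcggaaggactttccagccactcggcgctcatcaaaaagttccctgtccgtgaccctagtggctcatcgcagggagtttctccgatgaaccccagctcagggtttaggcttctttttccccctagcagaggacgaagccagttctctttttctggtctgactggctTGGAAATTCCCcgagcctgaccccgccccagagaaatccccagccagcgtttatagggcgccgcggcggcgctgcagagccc

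Positions were counted back from the RefSeq transcription start. In ICAM1 the marked letters lay at -187 to -177, in NFKBIA at -82 to -72, and in TNFAIP3 at -67 to -58 and -56 to -46. The first motif is the general kappaB consensus, and overlapping matches were merged. It was present in the 250 bases upstream of 9.96% of 35116 RefSeq promoter entries, the second, a form known from RELA and REL dimers, in 8.22%, and either of them in 15.1%. Of the 10 genes, 8 had a promoter entry, with 13 entries in all, and a match of either motif was present in 8 of the 13 entries and for 7 genes. RELA had no match in its windows, which says only that these letters were not there. A match is a description of the sequence, and binding was not measured. Matches of the second motif stood upstream of a gene that was higher in PANC1OR (ICAM1) and of genes with lower levels (TNFAIP3 and NFKBIA).

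ICAM1 RNA was higher in PANC1OR and TNFAIP3 RNA lower, and these were the members that passed the test with all 6 libraries. ICAM1 rose 3.68-fold and TNFAIP3 fell by 1.57 on the log2 scale. NFKBIA and NFKBIE were lower in each PANC1OR library than in any PANC1 library, without passing the test. The subunit genes and NFKBIB had overlapping levels in the lines. By edgeR's quasi-likelihood test with Benjamini-Hochberg adjustment over all tested genes (adjusted p under 0.05), 1 of the 10 genes was called higher, where 10.3% of all tested genes were called higher, and 1 was called lower, where 7.50% of all were. These shares are near the background, so the counts alone do not set the 10 genes apart. Levels of the lines did not overlap, with PANC1OR higher, for 1 member against 18.9% of all tested genes, and with PANC1OR lower, for 3 members against 17.6%. No member passed the cutoffs of the series design text, a log2 fold change beyond 2 in either direction at a false discovery rate below 0.01, which 6.25% of the tested genes passed in this fit; 0 did by the likelihood ratio test or DESeq2, and 4 members had an unadjusted p under 0.05 in the quasi-likelihood test.

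**Figure D1:**
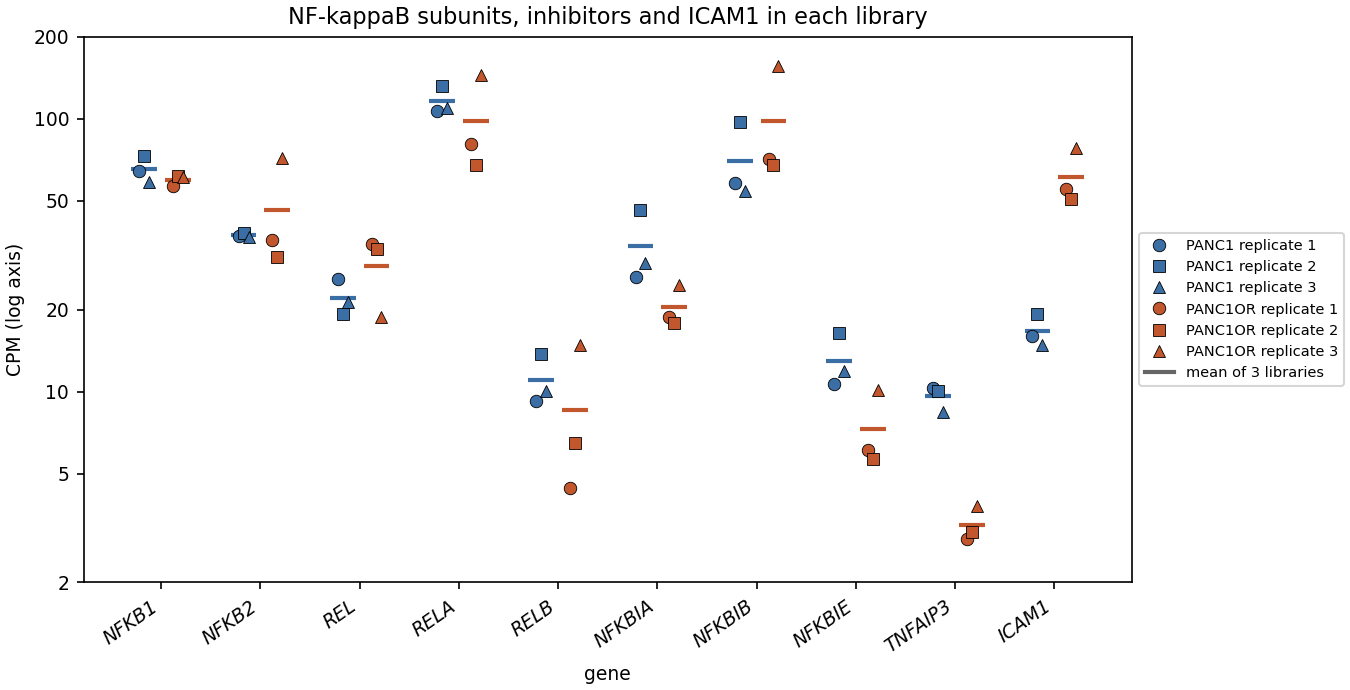
CPM (read counts scaled to one common library size with TMM factors, log axis) of the 10 genes in each library, with bars at the mean of 3 libraries and a marker shape for each replicate. ICAM1 lies between 50.7 and 78.0 in PANC1OR and between 14.9 and 19.2 in PANC1, TNFAIP3 lies lower in PANC1OR, and PANC1OR replicate 3 is the highest library for NFKB2, RELA, RELB and NFKBIB.

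Between 10199268 and 26394388 reads were assigned to genes per library, and a first principal component with 65.6% of the variance set the lines apart. The second (25.2%) set PANC1OR replicate 3 apart from the other libraries. Its genes with a GC content over 60% had a median log2 CPM deviation of 1.32 from the mean of the other PANC1OR libraries. Those under 40% had a median deviation of -0.95. PANC1 replicate 2 deviated the same way by less (0.34 and -0.25). Fits without PANC1OR replicate 3 were therefore made as well. So were fits with offsets that remove, for each library, the trend along GC content of its deviation from the mean of all 6 libraries. These offsets also take out any difference between the lines that follows GC content. Of the epithelial markers, KRT8 (484.2 and 428.7 CPM) and KRT18 were abundant in both lines, KRT19 was lower in PANC1OR (log2 fold change -3.81, adjusted p = 0.000635, edgeR quasi-likelihood test), and the duct keratin KRT7 was near absent (0.747 and 1.82 CPM). EPCAM was at 14.1 and 8.13 CPM, lower in each PANC1OR library than in any PANC1 library (edgeR adjusted p = 0.0726), and was called lower without PANC1OR replicate 3 (0.0147) and with GC offsets (0.00278). KRT7 was called higher with GC offsets (log2 fold change 1.22, edgeR adjusted p = 0.0325) and not without PANC1OR replicate 3 (0.64, adjusted p = 0.302).

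Among the subunits, NFKB1 encodes p105, the precursor of p50. NFKB1 stood at 64.2, 72.9 and 58.8 CPM in PANC1 replicates 1 to 3 and at 56.5, 61.5 and 61.0 CPM in PANC1OR replicates 1 to 3. The libraries of the lines overlapped, and the log2 fold change (PANC1OR minus PANC1) was -0.13 ± 0.18 (SE; edgeR adjusted p = 0.688). RELA encodes p65, the partner of p50 in the most studied dimer. RELA was at 106.9, 132.2 and 110.0 CPM in PANC1 and at 80.9, 67.9 and 144.7 CPM in PANC1OR. PANC1OR replicates 1 and 2 lay below every PANC1 library and replicate 3 above every one, with a log2 fold change of -0.25 ± 0.29 (edgeR adjusted p = 0.633). REL, which encodes c-Rel, was at 25.8, 19.2 and 21.3 CPM in PANC1 and at 34.8, 33.4 and 18.8 CPM in PANC1OR. Here PANC1OR replicates 1 and 2 were the highest of the 6 libraries and replicate 3 the lowest (log2 fold change 0.39 ± 0.28, edgeR adjusted p = 0.408).

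NFKB2 and RELB encode the subunits of the non-canonical pathway, p100, the precursor of p52, and RelB. NFKB2 was at 37.4, 38.2 and 37.0 CPM in PANC1 and at 36.0, 31.2 and 72.0 CPM in PANC1OR. Replicates 1 and 2 of PANC1OR lay just below PANC1 and replicate 3 far above it, with a log2 fold change of 0.30 ± 0.32 (edgeR adjusted p = 0.592) that turned to -0.17 ± 0.12 without that library. RELB was at 9.28, 13.8 and 10.1 CPM in PANC1 and at 4.45, 6.49 and 14.8 CPM in PANC1OR. The split of the PANC1OR libraries was the same as for RELA, and the log2 fold change was -0.38 ± 0.43 (edgeR adjusted p = 0.63). The 4 subunit genes other than NFKB1 thus shared 1 feature, a PANC1OR replicate 3 that lay outside the range of the other 5 libraries.

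Levels were also divided by exon length so that genes could be compared with each other (CPM per kilobase of exon). RELA made up 56.0%, 58.5% and 57.3% of the subunit RNA in PANC1 replicates 1 to 3 and 52.2%, 47.7% and 53.7% in PANC1OR. RELA was the largest share in every library, and its 3 PANC1OR shares lay below its 3 PANC1 shares (57.3% ± 1.23 and 51.2% ± 3.12, SD, n = 3). NFKB2 took 18.2% ± 1.44 in PANC1 and 23.4% ± 2.43 in PANC1OR, again without overlap. NFKB1 (11.2% ± 0.514 and 11.9% ± 3.65), RELB (9.84% ± 1.15 and 7.85% ± 2.42) and REL (3.52% ± 0.803 and 5.61% ± 2.94) overlapped between the lines. The shares of NFKB1 and REL were lowest, and that of NFKB2 highest, in PANC1OR replicate 3, the library with the raised GC-rich genes; these shares are a description and carry no test.

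**Figure D2:**
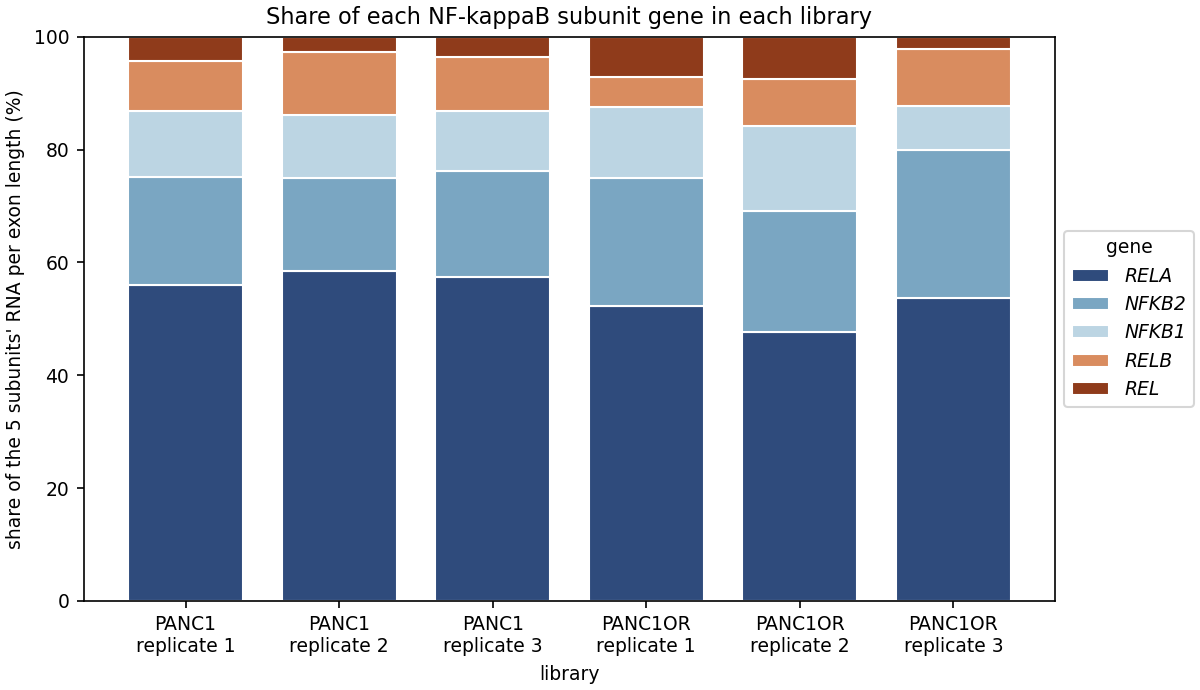
Share (%) of the 5 subunit genes in their summed level per exon length, as a stacked bar for each library. RELA is the largest part in every bar, at 56.0% to 58.5% in PANC1 and 47.7% to 53.7% in PANC1OR.

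The IkappaB gene NFKBIA, which encodes IkappaB-alpha, stood at 26.4, 46.3 and 29.5 CPM in PANC1 and at 18.8, 17.8 and 24.5 CPM in PANC1OR. Every PANC1OR library lay below every PANC1 library, and the log2 fold change of -0.74 ± 0.27 missed the threshold (edgeR adjusted p = 0.108). NFKBIE, which encodes IkappaB-epsilon, was at 10.7, 16.4 and 11.9 CPM in PANC1 and at 6.13, 5.68 and 10.2 CPM in PANC1OR. Its groups did not overlap either, although PANC1OR replicate 3 came close to PANC1 replicate 1, and the log2 fold change was -0.83 ± 0.30 (edgeR adjusted p = 0.105). NFKBIB, which encodes IkappaB-beta, was at 58.3, 97.5 and 54.4 CPM in PANC1 and at 71.2, 67.8 and 155.8 CPM in PANC1OR. The lines overlapped, the highest libraries were PANC1 replicate 2 and PANC1OR replicate 3, and the log2 fold change of 0.49 ± 0.38 (edgeR adjusted p = 0.448) was -0.016 without PANC1OR replicate 3. NFKBIB shares exon bases with SIRT2 on the opposite strand, which held 2284 reads in PANC1 and 4385 in PANC1OR; the sources used here give no strand setting for the counting, so reads of the overlap cannot be assigned to one gene.

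TNFAIP3 removes and edits ubiquitin chains on signalling proteins upstream of the IkappaB kinases and so ends the response. TNFAIP3 was at 10.3, 10.0 and 8.44 CPM in PANC1 (166, 96 and 138 reads) and at 2.88, 3.06 and 3.80 CPM in PANC1OR (77, 49 and 46 reads). All PANC1OR libraries lay below all PANC1 libraries, with PANC1OR replicate 3 the highest of its line. The mean fell from 9.60 ± 1.02 to 3.25 ± 0.487 CPM (SD, n = 3), a log2 fold change of -1.57 ± 0.24 (edgeR adjusted p = 0.00275), and the adjusted p was between 0.000198 and 0.0205 when any 1 library was left out. TNFAIP3 (ENSG00000118503) lies on chromosome 6 at 137867214 to 137883314 on the plus strand (GRCh38), and the long non-coding RNA WAKMAR2, which overlaps it on the opposite strand, held 11 reads in PANC1 and 3 in PANC1OR.

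ICAM1 encodes the ligand of the leukocyte integrins LFA-1 and Mac-1 and is induced in many cell types by inflammatory cytokines. ICAM1 was at 15.9, 19.2 and 14.9 CPM in PANC1 (256, 184 and 243 reads) and at 55.3, 50.7 and 78.0 CPM in PANC1OR (1479, 812 and 944 reads). Each PANC1OR library lay above each PANC1 library, and PANC1OR replicate 3 was the highest. The mean rose from 16.7 ± 2.27 to 61.3 ± 14.6 CPM (SD, n = 3), a log2 fold change of 1.88 ± 0.24 (edgeR adjusted p = 0.00124), and the adjusted p was between 4.4e-05 and 0.0152 when any 1 library was left out. ICAM1 (ENSG00000090339) lies on chromosome 19 at 10271093 to 10286615 on the plus strand (GRCh38), and the antisense RNAs LIMASI (1 and 5 reads) and ICAM4-AS1 (20 and 24 reads) that overlap it held few reads in either line. None of the other intercellular adhesion molecules was called: the gene ICAM5 was at 5.56 ± 0.48 and 7.71 ± 5.78 CPM (log2 fold change 0.45 ± 0.48, edgeR adjusted p = 0.596; -0.37 without PANC1OR replicate 3, which stood at 14.4 CPM beside 3.96 and 4.81), ICAM2 and ICAM3 had 1 to 3 reads in each line, and ICAM4 had 0 reads.

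In the order of levels per exon length, NFKBIB (30.2 ± 10.2 CPM per kilobase, SD, n = 3) and RELA (21.3 ± 2.53) came first in PANC1, with overlapping libraries. NFKBIA (10.0 ± 3.15), NFKB2 (6.72 ± 0.113) and NFKBIE (5.03 ± 1.17) followed, each step without overlap. NFKBIE, ICAM1 (4.84 ± 0.658), NFKB1 (4.17 ± 0.453) and RELB (3.69 ± 0.802) overlapped from one to the next, and TNFAIP3 (1.49 ± 0.158) and REL (1.29 ± 0.197) came last and overlapped. In PANC1OR, ICAM1 followed the same pair (17.8 ± 4.23), with libraries that overlapped those of RELA (17.9 ± 7.53), and TNFAIP3 last (0.504 ± 0.0757), below REL (1.69 ± 0.515) without overlap. ICAM1 was thus 6th in PANC1 and 3rd in PANC1OR in this order. The summed level of the 3 IkappaB genes over that of the 5 subunit genes was 1.06, 1.49 and 1.05 in PANC1 and 1.36, 1.40 and 1.59 in PANC1OR, which overlapped. NFKBIB supplied the largest part of the IkappaB sum in every library. Its reads on exon bases shared with SIRT2 cannot be assigned to one gene, so its rank and this ratio carry that limit.

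The libraries of PANC1OR differed by the GC content of the gene, taken from the longest annotated transcript, also within the 10 genes. In PANC1OR replicate 3, RELB (64.9% GC) was 1.43 above the mean of replicates 1 and 2 on the log2 scale, NFKBIB (60.5%) 1.16 and NFKB2 (62.4%) 1.1 above it. REL (38.7%) lay 0.855 below it (-0.855), while TNFAIP3 (47.8%) and ICAM1 (56.0%) lay 0.355 and 0.557 above it. NFKB1, at 36.0% by its longest transcript, differed by 0.048. With GC offsets the SE of its log2 fold change was 0.30 beside 0.18 without them, while that of each other member fell. Whether its longest transcript is the form expressed was not tested. For ICAM1 the gap between replicate 3 and the rest of its line was thus smaller than the gap between the lines.

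**Figure D3:**
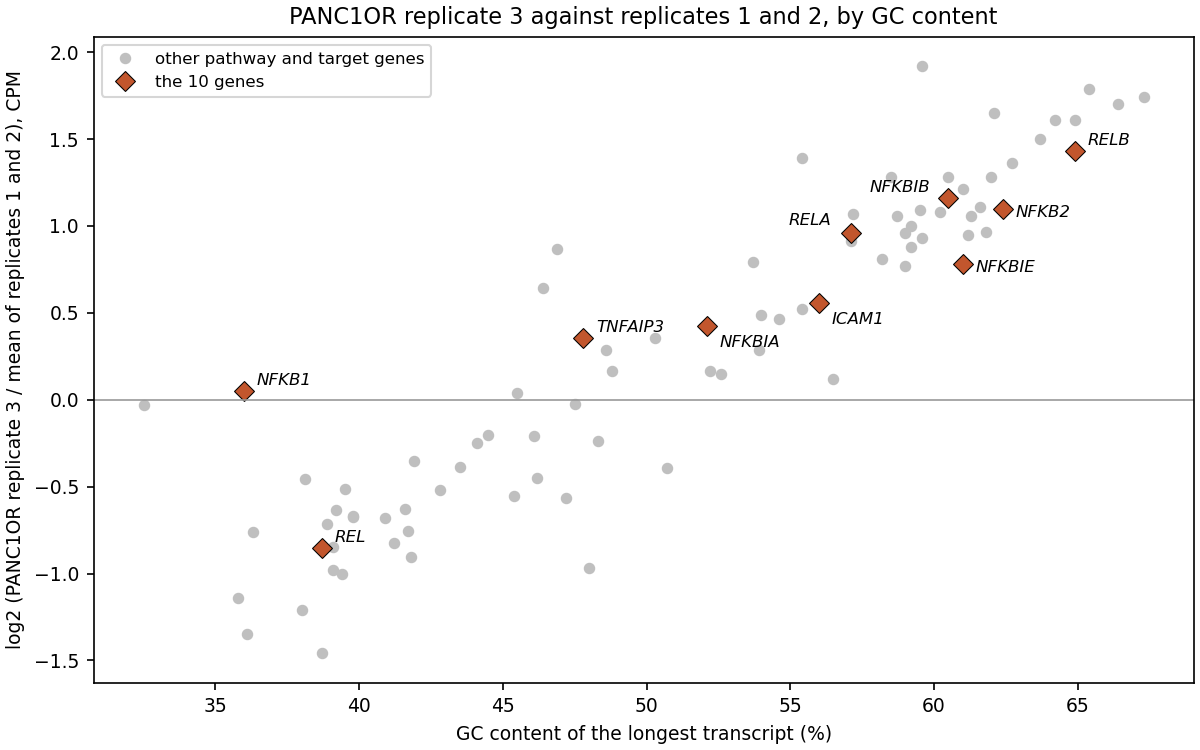
Log2 ratio of the CPM in PANC1OR replicate 3 to the mean of replicates 1 and 2 (y axis) against the GC content (%) of the longest transcript (x axis) for the 10 genes and the other pathway and target genes. Among the 10 genes, values run from -0.855 at REL (38.7%) to 1.43 at RELB (64.9%), and some other genes lie beyond this range at either end.

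Without PANC1OR replicate 3, 2 members were called higher and 5 lower, where 22.1% and 22.0% of the 19650 genes tested in that fit were called. RELA (log2 fold change -0.65, edgeR adjusted p = 0.00594), RELB (-1.03, 0.00836), NFKBIA (-0.90, 0.0141) and NFKBIE (-1.13, 0.00311) joined TNFAIP3 (-1.70) among the lower genes, and REL (0.61, adjusted p = 0.0117) joined ICAM1 (1.67) among the higher. NFKB1 and NFKB2 were not called in that fit. With all 6 libraries and GC offsets, 2 members were called higher and 4 lower, beside 18.1% and 21.3% of all tested genes. The lower genes were then TNFAIP3 (-1.64), NFKBIE (-0.83, edgeR adjusted p = 0.00266), NFKBIA (-0.78, 0.00636) and RELA (-0.32, 0.0358), and the higher ones ICAM1 (1.86) and NFKBIB (0.42, 0.045). NFKBIA, NFKBIE and RELA were therefore called lower under both treatments of this library, whereas REL and RELB were called after its removal and not with the offsets. NFKBIB was called with the offsets and not after removal of this library alone, but was also called with PANC1 replicate 2 left out as well (0.28, edgeR adjusted p = 0.00581).

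**Figure D4:**
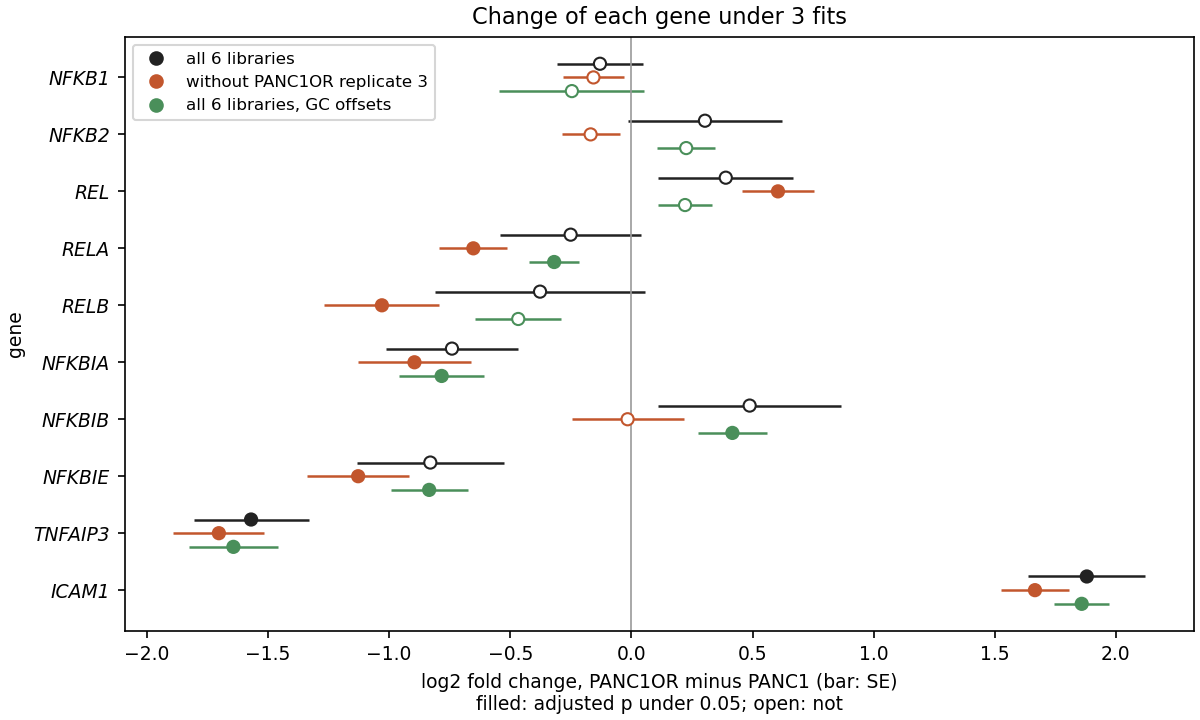
Log2 fold change (PANC1OR minus PANC1) of each gene with all 6 libraries, without PANC1OR replicate 3, and with GC offsets; bars are the SE, and filled points have an adjusted p under 0.05. ICAM1 (1.67 to 1.88) and TNFAIP3 (-1.70 to -1.57) are filled in each of the 3 fits, and NFKB2 and NFKBIB lie near or below 0 without PANC1OR replicate 3.

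Upstream of the subunits, the RNA of ligands was low in both lines. Of 9 ligand genes, 3 were tested and none was called (edgeR quasi-likelihood test; 2 had an unadjusted p under 0.05, 1 was called by the likelihood ratio test and 0 by DESeq2). IL1B, which encodes interleukin-1 beta, averaged 1.72 ± 0.50 CPM in PANC1 and 0.873 ± 0.202 CPM in PANC1OR (log2 fold change -0.98, adjusted p = 0.101), and TNFSF12, which encodes TWEAK, at 5.04 ± 1.15 and 9.89 ± 5.24 CPM (0.97, adjusted p = 0.135). IL1B passed the filter on low counts only through PANC1, the line where it was higher. TNF itself had 6 reads in PANC1 and 4 in PANC1OR.

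Receptors for these ligands and for microbial products were measured by 12 genes, of which 8 were tested. Of these, 5 were called higher and 1 lower, beside 10.3% and 7.50% of all tested genes. The median log2 fold change was 1.27 beside 0.04 over all tested genes. It was 0.984 without PANC1OR replicate 3 and 1.18 with GC offsets. Without a filter on low counts, all 12 receptors had a median of 0.921. That median was 0.669 when a line without a read was set to 3 reads. TLR4, the receptor of lipopolysaccharide, was covered by 3 reads in PANC1 against 305 in PANC1OR, which gave a CPM ratio of 77.8 (95% counting interval 26.4 to 379), so it passed the filter on low counts only through PANC1OR. IL1R1, the signalling receptor of interleukin-1, fell from 22.7 ± 1.16 to 4.36 ± 0.347 CPM (log2 fold change -2.38 ± 0.21, edgeR adjusted p = 0.000191), while its co-receptor IL1RAP rose from 2.08 ± 0.631 to 14.2 ± 4.54 CPM (2.77 ± 0.36, adjusted p = 0.00126). The partners of the interleukin-1 receptor thus moved in opposite directions. TNFRSF11A, which encodes RANK, rose by 1.02 ± 0.18 on the log2 scale (edgeR adjusted p = 0.00589). CD40 and TNFRSF1B, named after their values were seen, both rose by 1.52 on that scale. Without PANC1 replicate 1 or 3 the edgeR adjusted p of CD40 was 0.0566 and 0.0503, and that of TNFRSF1B was up to 0.0923 without any 1 PANC1 library. The receptors TNFRSF1A (0.52, edgeR adjusted p = 0.231) and TNFRSF12A (0.82, adjusted p = 0.299) were not called. Without PANC1OR replicate 3 their log2 fold changes were 0.20 and 0.060. With GC offsets both were called higher (0.46, edgeR adjusted p = 0.0106, and 0.69, adjusted p = 0.00419). That fit gave 7 receptors higher and 1 lower, beside 18.1% and 21.3% of all tested genes. Leaving out PANC1 replicate 1 or PANC1 replicate 3 left 3 receptors called higher. The genes LTBR, TLR2, TLR3 and TLR5 were not tested.

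Of 20 genes of adaptors and ubiquitin ligases, 19 were tested. Of these, 2 were called higher and 2 lower (median -0.21), beside 10.3% and 7.50% of all tested genes. BCL10 and MALT1 encode partners in the complex that links antigen and G protein-coupled receptors to the pathway. BCL10 rose from 48.7 ± 4.10 to 157.2 ± 27.0 CPM (log2 fold change 1.69 ± 0.20, edgeR adjusted p = 0.000822), and MALT1 fell from 71.5 ± 4.67 to 30.2 ± 10.5 CPM (-1.24 ± 0.28, adjusted p = 0.0192). IRAK4, a kinase of the Toll-like and interleukin-1 receptor complex, rose by 1.31 and TAB2, which tethers the kinase TAK1 to ubiquitin chains, fell by 0.88 on the log2 scale (edgeR adjusted p = 0.00379 and 0.0269). The calls of MALT1 and TAB2 were lost without any 1 of the PANC1 libraries (adjusted p up to 0.0809 and 0.103), and that of TAB2 also without PANC1OR replicate 2 (adjusted p = 0.0542). Without PANC1OR replicate 3, the list had 4 genes called higher and 9 lower, beside 22.1% and 22.0% of all tested genes. With GC offsets the counts were 5 and 9, beside 18.1% and 21.3% of all tested genes. CARD10, named after its values were seen, was not called with all 6 libraries (log2 fold change -0.92, edgeR adjusted p = 0.251). It was called lower without PANC1OR replicate 3 (-1.78, edgeR adjusted p = 3.56e-05) and with GC offsets (-1.10, adjusted p = 0.000293).

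Among 7 kinase genes, all tested, 1 was called higher and none lower (median 0.16), beside 10.3% and 7.50% of all tested genes. IKBKE, which encodes the IkappaB kinase-related kinase IKK-epsilon, rose from 0.661 ± 0.0307 to 2.05 ± 0.946 CPM (log2 fold change 1.58 ± 0.41, edgeR adjusted p = 0.0318). It passed the filter on low counts only through PANC1OR, the line where it was high. Its call was lost without any 1 PANC1 library (edgeR adjusted p up to 0.125). None of the genes for the core IkappaB kinase complex was called: CHUK was at 88.9 ± 16.5 and 91.3 ± 25.1 CPM, IKBKB at 21.4 ± 1.45 and 26.1 ± 3.83 CPM and IKBKG at 6.51 ± 1.99 and 7.31 ± 5.27 CPM, with log2 fold changes of 0.038, 0.28 and 0.16. Without PANC1OR replicate 3, TBK1 (0.70, edgeR adjusted p = 0.00329) was called higher and MAP3K14, the kinase of the non-canonical pathway, lower (-0.60, adjusted p = 0.00234). With GC offsets neither TBK1 (0.10, edgeR adjusted p = 0.48) nor MAP3K14 (-0.34, adjusted p = 0.0518) was called.

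Of 15 other inhibitors and brakes, 14 were tested and 0 were called (median -0.029). Of all tested genes, 10.3% were called higher and 7.50% lower. In the same edgeR test 2 of these brakes had an unadjusted p under 0.05. The likelihood ratio test called 1 of them and DESeq2 called 1. CYLD, a deubiquitinase, was at 14.7 ± 0.777 and 24.9 ± 6.27 CPM (log2 fold change 0.76 ± 0.24, edgeR adjusted p = 0.0696). BCL3, a nuclear IkappaB protein, was at 27.0, 34.4 and 25.5 CPM in PANC1 and at 8.37, 7.37 and 25.6 CPM in PANC1OR, so that PANC1OR replicate 3 lay within the PANC1 range (-1.08 ± 0.47, adjusted p = 0.166). Without that library CYLD (0.94, edgeR adjusted p = 0.000702), ITCH (0.64, 0.00128) and NFKBIZ (0.50, 0.0192) were called higher and BCL3 (-1.88, 8.77e-05), TNIP1 (-0.84, 0.00772) and TNIP2 (-0.72, 0.0148) lower. With GC offsets CYLD (0.62), ITCH (0.32), BCL3 (-1.22) and TNIP1 (-0.48) were called in the same directions, NFKBIZ (0.30, edgeR adjusted p = 0.107) and TNIP2 (-0.35, adjusted p = 0.0516) were not, and NFKBID (0.47, adjusted p = 0.032) was called higher.

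Target genes of the pathway were called in both directions. Of 40 listed genes, 39 were matched by symbol and 26 tested (SOD2 is not analysed here). Of the tested ones, 8 were called higher and 5 lower (median 0.50), beside 10.3% and 7.50% of all tested genes. Without PANC1OR replicate 3 the counts were 12 and 7 and the median 0.12, beside 22.1% and 22.0% of all tested genes. With GC offsets they were 12 and 8 with a median of 0.41, beside 18.1% and 21.3% of all tested genes. Without PANC1 replicate 1 or PANC1 replicate 3, 4 were called higher and 5 lower. The 5 lower genes encode secreted chemokines and a growth factor of myeloid cells: CCL2, CXCL1, CCL5, CXCL8 and CSF1, of which the last 3 were named after their values were seen. CCL2, which attracts monocytes, fell from 83.9, 132.8 and 81.7 CPM to 4.97, 5.00 and 5.12 CPM (log2 fold change -4.30 ± 0.27, edgeR adjusted p = 5.13e-05). CXCL1, which attracts neutrophils, fell by 4.17 on the same scale, and the log2 fold changes of CCL5, CXCL8 and CSF1 were -3.50, -3.22 and -2.77. CSF1 was the most abundant of them (370.1 ± 17.6 CPM in PANC1 and 54.2 ± 20.6 in PANC1OR), while CCL5 and CXCL8 rested on 5 and 9 reads in PANC1OR. CXCL1, CCL5 and CXCL8 passed the filter on low counts only through PANC1, the line where they were high. Not every chemokine was lower. CX3CL1, named after its values were seen, was not called (0.25, edgeR adjusted p = 0.752, and -0.36 without PANC1OR replicate 3). The untested CCL20, also named so, had 3 reads in PANC1 and 17 in PANC1OR (CPM ratio 4.34, 95% counting interval 1.25 to 23.1), with overlapping libraries. Other untested chemokines, also named so, were lower in PANC1OR without overlap. CXCL5 had 23 reads in PANC1 and 0 in PANC1OR, and CXCL3 had 11 and 0. CXCL2 had 9 and 1 (CPM ratio of PANC1 to PANC1OR 11.8, 95% counting interval 1.63 to 516).

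The higher target genes were led by PTX3, a soluble pattern recognition molecule, at 0.747, 0.94 and 0.184 CPM in PANC1 and 65.1, 66.6 and 64.7 CPM in PANC1OR (log2 fold change 6.78 ± 0.45, edgeR adjusted p = 6.28e-05). C3, the central complement component, had 7 reads in PANC1 and 202 in PANC1OR (4.41 ± 0.38, adjusted p = 0.000189). PTX3, C3 and EBI3 passed the filter on low counts only through PANC1OR, the line where they were high. The other 6, named after their values were seen, were EBI3 (2.67), the immunoproteasome subunit PSMB9 (1.84), the survival genes BCL2A1 (1.56) and BCL2L1 (1.28), the urokinase gene PLAU (1.13) and the kinase RIPK2 (0.84). EBI3, PSMB9, BCL2L1 and RIPK2 lost the call without PANC1 replicate 1 (edgeR adjusted p = 0.163, 0.0681, 0.0848 and 0.149) and without PANC1 replicate 3; EBI3 and RIPK2 also lost it without PANC1 replicate 2, and RIPK2 without PANC1OR replicate 1 or 2.

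**Figure D5:**
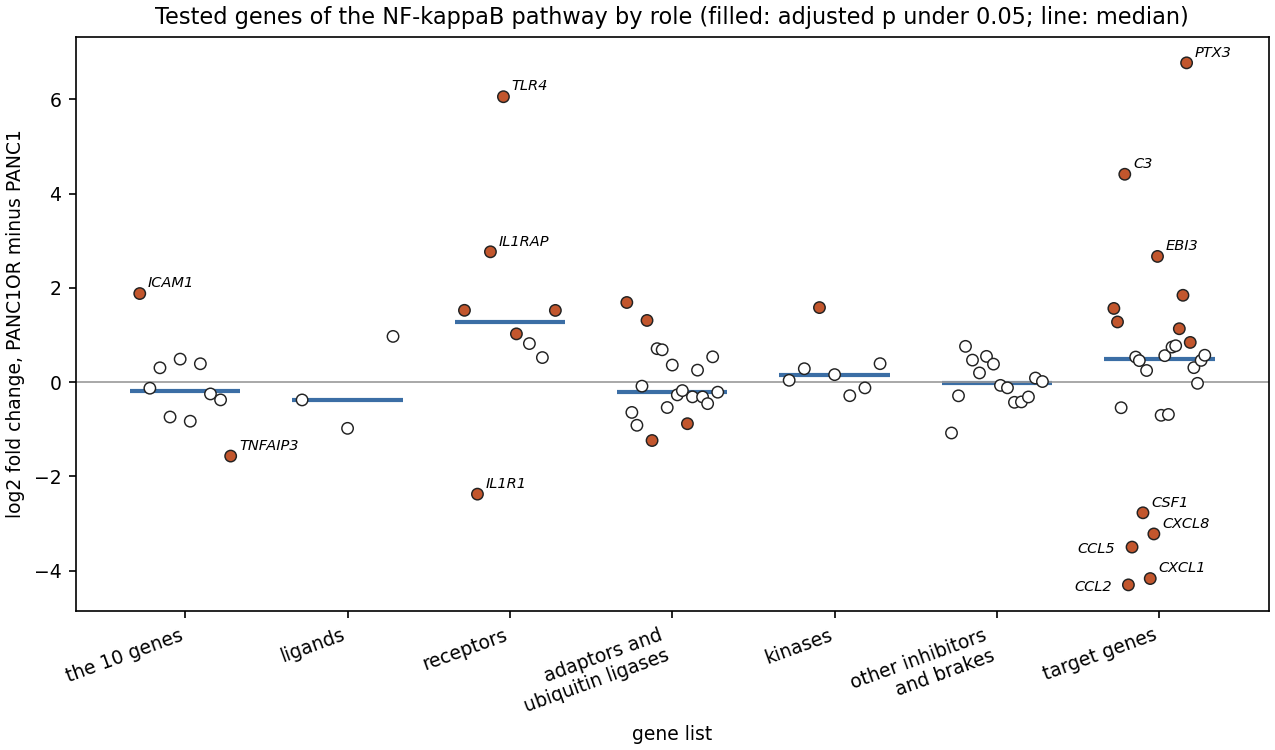
Log2 fold change (PANC1OR minus PANC1, y axis) of each tested gene in the lists by role (x axis); filled points have an adjusted p under 0.05 and lines are medians. Receptors have the highest median (1.27), and target genes spread from CCL2 (-4.30) to PTX3 (6.78).

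Leukocyte and endothelial markers were low in both lines, while fibroblast markers were present through COL1A1; their part in the results was not tested. In these bulk samples fewer cells with a transcript and less transcript per cell cannot be told apart. The 9 leukocyte markers summed to 1.88 to 2.08 CPM in PANC1 and 3.59 to 8.26 CPM in PANC1OR, with CD3E at 0 reads in both lines, PTPRC (CD45) at 2 and 17 reads, and CD14 called higher (12 and 139 reads, log2 fold change 3.24, edgeR adjusted p = 0.00412), a gene that passed the filter on low counts only through PANC1OR. The 5 endothelial markers summed to at most 0.627 CPM in any library, and none of them was tested. The 7 fibroblast markers summed to 83.5 to 99.4 CPM in PANC1 and 115 to 300.0 CPM in PANC1OR, nearly all of it COL1A1 (87.4 and 171.9 CPM). DCN and LUM had at most 3 reads in a line. No fibroblast marker was called with all 6 libraries. COL1A1 was called higher without PANC1OR replicate 3 (0.35, edgeR adjusted p = 0.0376) and with GC offsets (0.82, 0.00218). COL3A1 and the leukocyte marker CD68 were called higher with GC offsets (edgeR adjusted p = 0.0303 and 0.0205) and not without PANC1OR replicate 3 (0.0884 and 0.0744). ICAM1, which leukocytes and endothelial cells also express, was 61.3 CPM in PANC1OR beside 0.294 CPM of PTPRC and 0.0915 CPM of PECAM1.

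The genes whose levels followed ICAM1 most closely over the 6 libraries were LHFPL6 (Pearson r of log2 CPM 0.9998), AGAP2 (0.9996), NME6 (0.9992), BMP6 (0.9991) and FOXC2 (0.9983), among the 11519 genes that averaged 5 CPM or more. Their log2 fold changes ran from 0.62 for BMP6 to 3.81 for AGAP2. The 6 points fall into the 2 lines and share the libraries, so these values describe likeness of pattern and carry no test.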

How the data were processed

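Messenger RNA libraries of 3 PANC1 and 3 PANC1OR cultures were analysed from the table of raw read counts per gene that the authors deposited, without normalization. Per the submitters' processing notes, the tools were FastQC 0.11.5 for quality, cutadapt for adaptors, STAR 2.5 for alignment to GRCh38, and featureCounts (Subread 1.6.2) for counting. The sources used here do not give the annotation release, the strand setting or the treatment of multiply aligned reads. The table also held 5 columns without values.

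Genes passing filterByExpr (18751) were scaled with TMM factors and tested with the quasi-likelihood F test of edgeR 4.0.16 (R 4.3.3) over all 6 libraries, with Benjamini-Hochberg adjustment over all tested genes. The standard error comes from the F statistic. The likelihood ratio test that the series design text names was an alternative, as were DESeq2 1.42.0, its size factors, no filter on low counts, GC offsets, a replicate block, and fits without single libraries. GENCODE release 44 gave positions, exon lengths and, from each gene's longest transcript, GC content. The code was tested on simulated data. Counting intervals cover counting error only. Library depths are given with the results. No replicate pair agreed within sampling noise (chi-square over its degrees of freedom 4.17 for the closest pair).

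The 10 genes, the lists (ligands, receptors, adaptors and ubiquitin ligases, kinases, other inhibitors and brakes, target genes, intercellular adhesion molecules, and epithelial, leukocyte, endothelial and fibroblast markers) and the tests were chosen with earlier results of these data known. Apart from the 10 genes, each list's lowest p-values among genes averaging 1 CPM or more gave up to 4 names, and others where they complete a small count or are at 0 reads.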

Additional observations from a re-analysis of the deposited data

How the results depend on the processing

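The calls of ICAM1 and TNFAIP3 held in all 14 alternatives, with edgeR or DESeq2 adjusted p-values from 1.9e-10 to 0.0152 for ICAM1 and from 1.99e-07 to 0.0205 for TNFAIP3. Of the 140 log2 fold changes of the 10 genes under alternatives, 120 kept their direction and side of the threshold, 17 newly passed it and 3 changed sign: NFKB2 to -0.17 without PANC1OR replicate 3 and to -0.16 with PANC1 replicate 2 also left out, and NFKBIB to -0.016 without PANC1OR replicate 3. Over fits without 1 library, NFKB2 ranged from -0.17 to 0.51 and NFKBIB from -0.016 to 0.80. Leaving out 1 library in turn gave 1 to 2 members called higher and 1 to 5 lower. It also gave 2 to 13 adaptors and ubiquitin ligases, 0 to 3 kinases and 0 to 6 brakes. Of all genes, the called ones ran from 1821 of 19570 tested to 8663 of 19650 tested. The highest count in each range came without PANC1OR replicate 3. With both PANC1 replicate 2 and PANC1OR replicate 3 left out, 11422 of the 19517 tested genes were called in either direction. In that fit 3 members were called higher and 5 lower. The lists then held 2 called ligands, 16 adaptors and ubiquitin ligases, 3 kinases, 7 brakes, 22 target genes and 1 intercellular adhesion molecule. GC offsets gave 2 members higher and 4 lower, 2 ligands, 14 adaptors and ubiquitin ligases, 5 brakes, 20 target genes and 7401 of the 18751 tested genes. The likelihood ratio test called 1 ligand and 1 brake, and DESeq2 and the fit without a filter called 1 brake each. Dividing by the longest transcript instead of all exons gave a share of 14.6% for NFKB1 and 7.63% for RELB in PANC1, and a ratio of IkappaB to subunit genes of 0.777 in PANC1 and 0.918 in PANC1OR. The cause of these changes was not tested.

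Deviations of libraries with the same replicate number correlated at 0.464 for replicate 1, -0.446 for replicate 2 and -0.22 for replicate 3. The sign was not shared, so the number was not taken as a pairing. With a replicate block, 2324 of the 18751 tested genes were called, 2305 of them among the 3345 called without it. ICAM1 (edgeR adjusted p = 0.00637) and TNFAIP3 (0.0167) passed, while no kinase did. The replicate block with GC offsets called 1 member higher and 3 lower, 1 ligand, 13 adaptors and ubiquitin ligases, 4 brakes and 6404 of the 18751 tested genes.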
